A study of Mus musculus with 6 samples.

Results

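The numbered Zfp genes are mouse genes whose symbol is Zfp followed by a number and at most 1 letter, most of which encode zinc-finger proteins. The deposited count table of RAW 264.7 cells, a mouse macrophage-like line of BALB/c origin, listed 394 such symbols once Zfp36 was left out. Of these, 305 had 10 or more counts in at least 3 of the 6 libraries and are the members described here, among 22192 genes listed. Polyadenylated RNA was sequenced from cells that had spent 24 h in medium with 200 µg/mL of ASPS-A1 (3 libraries), and from 3 control libraries whose treatment is labelled only as control. ASPS-A1 is a column-purified fraction, acidic in charge, of the polysaccharides in leaves of the shrub Acanthopanax senticosus. The treated libraries are titled ASPS-A1, A2 and A3, and the treatment label reads ASPS-A1 for all 3, so the digit was taken as a library number. All 6 libraries come from 1 cell line, and the labels do not say whether the libraries of a group came from separate cultures, so p-values measure only the spread between these libraries.

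C2H2 zinc fingers are small protein folds in which cysteines and histidines hold a zinc ion, and arrays of them read DNA, or in some proteins RNA. A large share of mammalian zinc-finger proteins also carry a KRAB domain, which binds the corepressor TRIM28. TRIM28 in turn recruits the histone methyltransferase SETDB1 and HP1 proteins, and this machinery is best known for silencing retrotransposons. KRAB zinc-finger genes lie in clusters that arose by gene duplication, and neighbours are often similar in sequence.

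Members were chosen by their counts in these 6 libraries, which are also the counts compared below. All 3 libraries of both groups reached 10 counts for 274 members, and the 3 libraries of 1 group alone did so for 22, which were 1 gene through ASPS-A1 and 21 through control. The remaining 9 reached 10 counts in 3 libraries drawn from both groups. The rule is on raw counts, and every control library had more counts in total than any ASPS-A1 library. The part of depth in this split was not tested, and the split was not counted over all genes. Just inside the threshold stood Zfp992, with 10, 13 and 14 counts with ASPS-A1 against 5, 8 and 5 in control, and Zfp418, with 5, 1 and 5 counts with ASPS-A1 against 11, 10 and 17 in control. Zfp882 was level with them, with 13, 1 and 2 counts with ASPS-A1 against 10, 11 and 7 in control. Just outside the threshold stood Zfp853, with 9, 9 and 17 counts with ASPS-A1 against 7, 7 and 15 in control. Zfp599, Zfp945 and Zfp663 had the same third-highest count as Zfp853. Of the 89 symbols below the rule, 28 had no count in any library. No symbol below the rule passed 39 counts in a library.

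Sequence upstream of the gene start is shown first for 6 members, because the motif content of these windows differed between some of the gene clusters. Each window runs from 250 bases before to 50 after the start in RefSeq (GRCm38.p6), read 5′ to 3′ on the gene's strand. Zfp729a and Zfp420 were higher with ASPS-A1, and Zfp953 and Zfp595, from the same chromosome 13 cluster as Zfp729a, were lower. In these 4, capitals mark a ZNF143-type element found on either strand, a motif of 12 bases of which 1 may be any base. Zfp955a (lower) and Zfp811 (higher) come from 1 chromosome 17 cluster, and capitals there mark GCCATNTT on either strand, the core of the YY1 motif.
Zfp729a, chr13:67637732-67638031, minus strand: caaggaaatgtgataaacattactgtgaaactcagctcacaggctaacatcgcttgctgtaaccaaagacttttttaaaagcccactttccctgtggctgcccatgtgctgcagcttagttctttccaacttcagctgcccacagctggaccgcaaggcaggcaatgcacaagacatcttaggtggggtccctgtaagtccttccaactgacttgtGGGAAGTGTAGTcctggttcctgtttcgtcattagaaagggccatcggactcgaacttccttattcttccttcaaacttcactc
Zfp953, chr13:67360523-67360822, minus strand: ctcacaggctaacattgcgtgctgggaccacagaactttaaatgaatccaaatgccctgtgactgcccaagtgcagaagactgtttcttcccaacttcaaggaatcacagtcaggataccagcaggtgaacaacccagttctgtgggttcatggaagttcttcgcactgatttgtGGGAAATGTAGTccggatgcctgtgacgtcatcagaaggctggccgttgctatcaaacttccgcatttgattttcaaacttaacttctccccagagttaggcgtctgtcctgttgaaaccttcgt
Zfp595, chr13:67332511-67332810, minus strand: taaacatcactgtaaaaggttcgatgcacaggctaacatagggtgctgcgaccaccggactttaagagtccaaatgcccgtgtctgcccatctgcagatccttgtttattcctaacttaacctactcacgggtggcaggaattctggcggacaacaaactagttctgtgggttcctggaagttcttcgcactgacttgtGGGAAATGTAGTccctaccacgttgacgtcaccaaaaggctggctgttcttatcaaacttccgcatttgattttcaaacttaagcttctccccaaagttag
Zfp420, chr7:29859762-29860061, plus strand: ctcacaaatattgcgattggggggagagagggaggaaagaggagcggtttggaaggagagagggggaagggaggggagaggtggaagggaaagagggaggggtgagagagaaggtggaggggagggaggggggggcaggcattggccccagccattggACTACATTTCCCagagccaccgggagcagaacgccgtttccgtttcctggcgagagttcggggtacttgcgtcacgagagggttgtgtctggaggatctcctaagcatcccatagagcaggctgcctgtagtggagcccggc
Zfp955a, chr17:33255096-33255395, minus strand: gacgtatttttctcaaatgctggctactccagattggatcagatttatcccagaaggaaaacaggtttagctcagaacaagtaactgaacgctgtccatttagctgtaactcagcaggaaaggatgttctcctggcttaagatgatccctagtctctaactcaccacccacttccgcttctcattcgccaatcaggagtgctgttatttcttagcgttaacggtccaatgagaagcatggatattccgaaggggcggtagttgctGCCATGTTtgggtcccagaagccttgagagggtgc
Zfp811, chr17:32809882-32810181, minus strand: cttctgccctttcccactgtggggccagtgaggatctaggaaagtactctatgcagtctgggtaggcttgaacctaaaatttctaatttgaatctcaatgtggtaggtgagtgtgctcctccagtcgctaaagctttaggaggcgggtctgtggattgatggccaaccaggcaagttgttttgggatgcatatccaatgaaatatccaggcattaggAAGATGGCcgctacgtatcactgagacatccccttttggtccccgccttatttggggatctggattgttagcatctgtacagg

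The ZNF143-type element was found in 13 of the 17 windows (16 genes) of a chromosome 13 cluster of 18 tested members, from Zfp712 to Zfp85. It was also in 10 of 15 windows of a chromosome 7 cluster, from Zfp84 to Zfp146, and in 0 of 19 and 0 of 13 windows of the 2 large chromosome 17 clusters. A second chromosome 7 cluster, from Zfp180 to Zfp526, had it in 4 of 10 windows. Across all members it was in 38 of 321 windows (11.8%), against 2.09% of 11853 windows of all genes tested and 0.947% of all 32851 windows in the table. The element was picked after the first windows had been read. The YY1 core was in 8 of 13 windows of the chromosome 17 cluster from Zfp871 to Zfp414 and in 0 of 17 windows of the chromosome 13 cluster, against 8.58% of windows of all genes tested and 6.05% of all windows. It was in 4 of 15 windows of the chromosome 7 cluster from Zfp84 to Zfp146 and in 1 of 10 from Zfp180 to Zfp526. In the other chromosome 17 cluster it was in 0 of 19 windows.

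These elements stood in windows of genes that moved either way. The ZNF143-type element was in 16 of 133 windows (12%) of members lower with ASPS-A1, in 2 of 29 (6.90%) of those higher, and in 20 of 157 (12.7%) of those that did not pass the test. The YY1 core was in 15% of windows of lower members, in 17.2% of windows of higher members and in 7.64% of windows of those not past the test, against 8.58% over all genes tested. Motifs for ETS factors (CCGGAAG), the E-box (CACGTG) and ATF4 with C/EBP (TGATGNAAT) were also searched, and were in 21.8%, 6.77% and 1.5% of the windows of lower members, and in 17.9%, 9.85% and 0.439% of those of all genes tested. The 1.5% stands for 2 windows. In windows of higher members the shares were 10.3%, 3.45% and 0%. For members that did not pass the test they were 23.6%, 5.73% and 0%. An NF-κB consensus was in 11 windows of lower members (8.27%) and in 4 of higher members (13.8%), against 10.4% over all genes tested. The AP-1 motif TGANTCA was in 4 windows of lower members and in 0 of higher members, and in 5.04% over all genes tested. Zfp143, the mouse gene for the factor that gives the first element its name, averaged 50.7 CPM with ASPS-A1 and 55.1 CPM in control (log2 fold change −0.12, adjusted p = 0.0973, edgeR).

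Levels are given in CPM, counts per 1000000 reads after scaling to trimmed-mean library sizes. Differences were tested with edgeR's quasi-likelihood test over all 11686 genes abundant enough, with Benjamini-Hochberg adjustment and a threshold of 0.05. Library totals ran from 19989318 to 22179544 counts with ASPS-A1 and from 23113454 to 26137127 counts in control. The macrophage markers listed for the check (10 of 10 with at least 10 counts in a library, called detected below, among them Lyz2, Cd68 and Csf1r) summed to between 3036 and 3076 CPM with ASPS-A1 and between 2399 and 2478 CPM in control, both per library total. Summed epithelial and neutrophil markers stayed at or under 0.123 CPM in every library, and the fibroblast list at or under 0.750 CPM. T-cell markers (2 of 5 detected, with Cd3e, Cd3g and Cd2 at 0) summed to 4.35 to 6.31 CPM with ASPS-A1 and 2.38 to 2.83 CPM in control, and endothelial markers (1 of 4 detected) to 11.9 to 12.8 CPM with ASPS-A1 and 7.24 to 8.80 CPM in control. Dendritic-cell markers (4 of 4 detected) summed to 3.07 to 4.17 CPM with ASPS-A1 and 4.54 to 4.90 CPM in control. The part of these shifts in the Zfp results was not tested. In bulk RNA, fewer cells with a transcript and less of it per cell cannot be told apart.

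Most numbered Zfp genes were scarce transcripts, and those that changed were mostly lower with ASPS-A1. The median member had 5.34 CPM with ASPS-A1 and 7.18 CPM in control, over a range of 0.210 to 561 CPM with ASPS-A1 and 0.230 to 320 CPM in control. Of the 303 members tested, 132 fell (43.6%), 28 rose (9.24%) and 143 did not pass the test. Over all genes tested, 33.0% fell and 32.4% rose, and these shares varied with level. In the lowest of 4 equal level classes, which held 169 members, 25.9% of all genes fell and 13.4% rose. Of the members in that class, 38.5% fell and 3.55% rose. The median log2 fold change was −0.31 over the tested members and −0.02 over all genes tested. Over the 274 members with 10 or more counts in all 6 libraries it was −0.26. Members had passed a count threshold on these same libraries, so the counts are a description of them. Among the 22 members that reached 10 counts throughout 1 group alone, 10 were called lower and 1 higher, and without them 122 of 282 fell and 27 rose.

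The changes were mostly modest. Members that fell did so by a median of 1.61-fold, and 47 of the 132 by less than 1.5-fold. Members that rose did so by a median of 1.36-fold, and 16 of the 28 by less than 1.5-fold. At least 2-fold changes were called for 31 members lower and 7 higher with ASPS-A1, against 5.74% lower and 3.69% higher over all genes tested. Among the 274 members with 10 or more counts in all 6 libraries, these numbers were 21 lower and 5 higher. The 3 ASPS-A1 libraries did not overlap the 3 control libraries for 175 members, and for 68.5% of all genes tested. Tested against a 1.5-fold change with glmTreat, 36 members were lower and 6 higher, against 7.53% lower and 6.95% higher over all genes. With library totals alone as the scaling, 176 members were lower and 17 higher, against 46.7% lower and 21.6% higher over all genes.

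**Figure D1:**
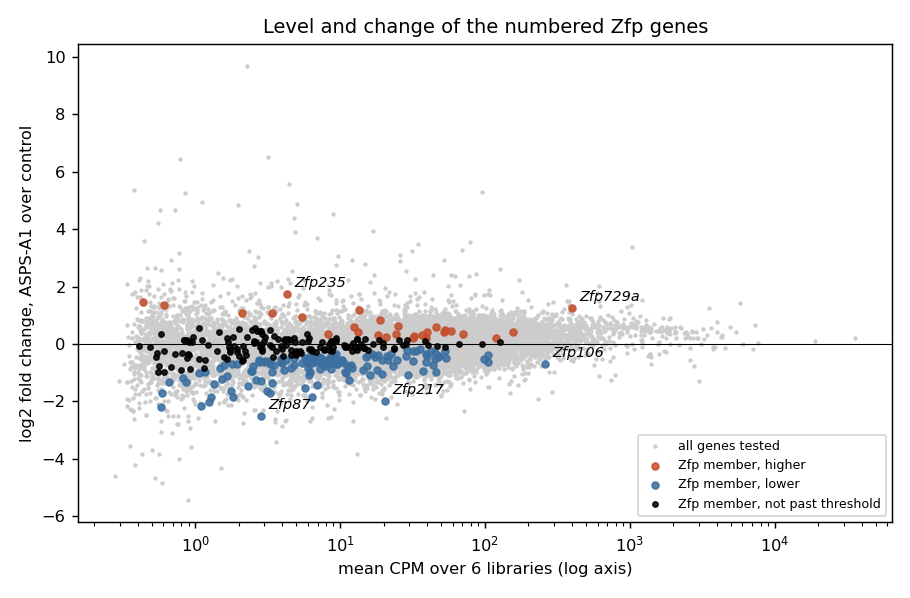
Log2 fold change of ASPS-A1 over control (vertical axis) against mean CPM over the 6 libraries (horizontal log axis), with 1 point per gene: grey for all genes tested, orange for members higher with ASPS-A1, blue for members lower, black for members not past the threshold. The 132 lower members outnumber the 28 higher ones, and Zfp729a is the member furthest to the right.

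Together the members took up less of the library with ASPS-A1. Their summed counts were 0.439%, 0.409% and 0.437% of all counts in the ASPS-A1 libraries, against 0.526%, 0.517% and 0.538% in the control libraries. The groups did not overlap. These shares are of library totals, without trimmed-mean scaling. On that scale the median log2 fold change was −0.51 over tested members and −0.22 over all genes tested. How much of the lower share belongs to the members alone was not tested. Among the members that rose, Zfp729a weighed most by counts: it held 11.9%, 12.2% and 12.7% of the members' counts with ASPS-A1, against 4.77%, 4.66% and 4.83% in control. Without Zfp729a the sums averaged 0.376% ± 0.0144 with ASPS-A1 and 0.502% ± 0.00997 in control (SD, n = 3 libraries each).

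Zfp729a, a KRAB gene with 27 matched fingers, was the most abundant member with ASPS-A1, and Zfp106 was so in control. Zfp729a had 552, 541 and 592 CPM in the ASPS-A1 libraries, against 234, 228 and 241 CPM in the control libraries. The log2 fold change was 1.26 ± 0.05 (SE, adjusted p = 1.34e-26, edgeR). Per kilobase of transcript it ranked 2 among the members with ASPS-A1 (59.4 CPM per kb) and 7 in control (24.8 CPM per kb). Its close relative Zfp729b averaged 2.92 CPM with ASPS-A1 and 3.98 CPM in control and did not pass the test (adjusted p = 0.0698, edgeR). Of the 64-base words of the Zfp729a transcript, 9.42% also occur in another gene.

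Zfp235 had the largest rise by fold among the named members. It had 7.83, 6.20 and 5.77 CPM with ASPS-A1, against 2.1, 1.90 and 1.95 CPM in control, a log2 fold change of 1.74 ± 0.20 (SE, adjusted p = 3.78e-10, edgeR). Zfp119b, a KRAB gene of chromosome 17, had 19.8, 17.9 and 18.4 CPM with ASPS-A1, against 9.04, 7.82 and 8.01 CPM in control (log2 fold change 1.18). Of its 64-base words, 13.6% occur in another gene. Zfp420, whose window is printed above, had 7.59, 5.54 and 8.58 CPM with ASPS-A1, against 3.99, 3.56 and 3.72 CPM in control (log2 fold change 0.95). The rule that named these genes required groups that do not overlap. Zfp811, from the chromosome 17 cluster with the YY1 core, had 30.4, 27.3 and 34.0 CPM with ASPS-A1, against 21.2, 18.2 and 19.5 CPM in control (log2 fold change 0.64). Zfp637 had a log2 fold change of 0.59, and its call was lost once length and GC content were offset per library (0.24, adjusted p = 0.0592, edgeR).

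Other rises were less certain. Zfp991 had 5.06, 4.46 and 4.18 CPM with ASPS-A1, against 2.34, 2.17 and 1.99 CPM in control, but 82.8% of its 64-base words occur in another gene, so reads may have been split between copies. Zfp13, listed among KRAB proteins although its longest coding sequence held no KRAB match, had 2.53, 4.24 and 1.85 CPM with ASPS-A1, against 1.3, 1.24 and 1.56 CPM in control. Its log2 fold change was 1.08, and without ASPS-A1 replicate 2 it was 0.69 and no longer passed (adjusted p = 0.0763, edgeR).

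**Figure D2:**
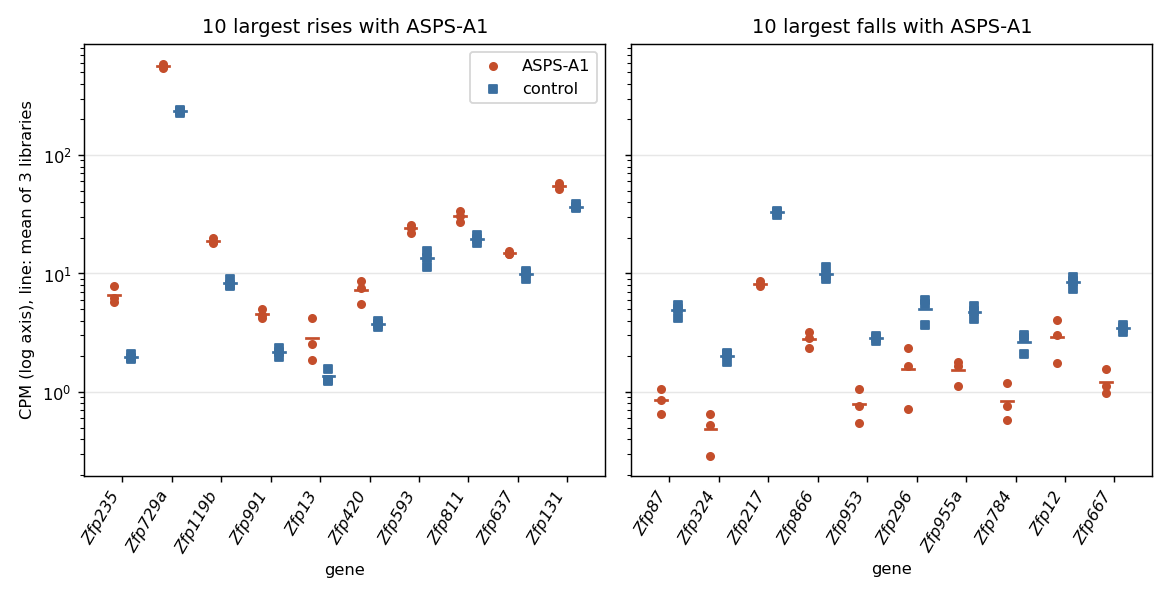
CPM (log axis) of the 10 largest rises and 10 largest falls with ASPS-A1 among named members, with 1 orange circle per ASPS-A1 library, 1 blue square per control library and a line at each mean of 3. The rule that named these genes required groups that do not overlap, and Zfp729a lies well above the others in level.

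The steepest fall was in Zfp87, a KRAB gene. It had 1.05, 0.652 and 0.848 CPM with ASPS-A1, against 4.24, 5.38 and 5.03 CPM in control, a log2 fold change of −2.51 ± 0.27 (SE, adjusted p = 2.48e-11, edgeR). Its exons share 10.4% of their length with Gm26965, and whether counting used strand is unknown, so reads there cannot be assigned to either gene with certainty. Zfp217, a component of corepressor complexes and an oncogene in human tumours, started higher. It had 8.64, 8.21 and 7.79 CPM with ASPS-A1, against 31.3, 33.9 and 33.2 CPM in control (log2 fold change −2.0 ± 0.10 SE, adjusted p = 2.01e-22, edgeR).

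Other genes among the largest falls had low levels. Zfp866 had 2.34, 2.83 and 3.18 CPM with ASPS-A1, against 8.95, 9.76 and 11.2 CPM in control (log2 fold change −1.85). Zfp953 had 0.764, 0.543 and 1.06 CPM with ASPS-A1, against 2.70, 2.94 and 2.87 CPM in control (log2 fold change −1.84). Zfp12 had 3.01, 4.02 and 1.75 CPM with ASPS-A1, against 8.67, 7.43 and 9.25 CPM in control (log2 fold change −1.53). All 3 are KRAB genes. Of the 64-base words of Zfp866, 11.3% occur in another gene. Zfp296, known from embryonic stem cells, had 0.716, 2.34 and 1.64 CPM with ASPS-A1, against 5.93, 5.54 and 3.69 CPM in control (log2 fold change −1.70). Its exons share 12.9% of their length with Gemin7. Zfp667 had 1.58, 0.978 and 1.11 CPM with ASPS-A1, against 3.67, 3.45 and 3.19 CPM in control (log2 fold change −1.48). Zfp955a had 1.67, 1.79 and 1.11 CPM with ASPS-A1, against 4.84, 4.10 and 5.35 CPM in control (log2 fold change −1.64), and shares 43.1% of its 64-base words with another gene. Zfp784 shares 94.8% of its exon length with neighbouring genes, so its log2 fold change of −1.63 is uncertain. Zfp324 reached 10 counts throughout only in control, with 6, 12 and 10 counts with ASPS-A1 against 53, 46 and 59 counts in control.

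The members listed for RNA, ribosome or spindle roles had a median log2 fold change above 0. Their median level was 55.0 CPM, against 6.14 CPM over all tested members. In the level class of all genes from 28.3 to 68.8 CPM, 37.8% fell and 36.7% rose. Above 68.8 CPM, where Zfp207, Zfp106 and Zfp346 of this list lie, 27.1% of all genes fell and 53.2% rose. Of the 10 tested proteins listed for RNA, ribosome or spindle roles, 6 rose, 2 fell and 2 did not pass, with a median log2 fold change of 0.37, against 33.0% lower and 32.4% higher over all genes tested (median −0.02). Zfp207 (BuGZ), which loads the checkpoint protein Bub3 at kinetochores, had 174, 181 and 182 CPM with ASPS-A1, against 138, 127 and 133 CPM in control (log2 fold change 0.43). Zfp598, a ubiquitin ligase that acts on collided ribosomes, had 64.6, 56.2 and 58.3 CPM with ASPS-A1, against 47.5, 44.3 and 42.0 CPM in control (log2 fold change 0.42). Zfp593, whose yeast counterpart Bud20 matures the large ribosomal subunit, had a log2 fold change of 0.84, but 77.9% of its exon length overlaps E130218I03Rik. Zfp330, a nucleolar protein, had a log2 fold change of 0.45.

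The exceptions in this list were Zfp106 and Zfp830. Zfp106, an RNA-binding protein, had 201, 195 and 198 CPM with ASPS-A1, against 314, 319 and 326 CPM in control (log2 fold change −0.69 ± 0.05 SE, adjusted p = 8.80e-18, edgeR), and shares 26.1% of its exon length with other genes. Zfp830 had 6.11, 9.89 and 8.74 CPM with ASPS-A1, against 12.5, 13.2 and 13.2 CPM in control (log2 fold change −0.66). Zfp346, which binds double-stranded RNA, had 128, 127 and 131 CPM with ASPS-A1, against 120, 128 and 123 CPM in control, and did not pass (log2 fold change 0.06, adjusted p = 0.330, edgeR). Scaled by library totals alone its sign turned (−0.14, adjusted p = 0.0145, edgeR), and with offsets for length and GC content it was called higher (0.14, adjusted p = 0.00522, edgeR).

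Among 29 tested transcription factors and chromatin partners listed as lacking KRAB, 16 fell, 4 rose and 9 did not pass (median −0.24), against 33.0% lower and 32.4% higher over all genes tested. One of them, Zfp110, did match the KRAB pattern. Zfp217 fell most among those with 10 counts in all libraries. Zfp608, which represses the Rag recombinase genes in mouse thymocytes, had 3.91, 4.29 and 3.65 CPM with ASPS-A1, against 8.67, 8.44 and 7.87 CPM in control (log2 fold change −1.07). Zfp710 had 31.2, 35.3 and 25.5 CPM with ASPS-A1, against 56.0, 59.1 and 66.8 CPM in control (log2 fold change −0.98). Zfp532 reached 10 counts throughout only in control, with 8, 8 and 13 counts with ASPS-A1 against 21, 40 and 29 counts in control. It shares 28.7% of its exon length with other genes. It is counted among the 16, and its call was lost with offsets for length and GC content (adjusted p = 0.0673), and on leaving out control replicate 2 (adjusted p = 0.123), ASPS-A1 replicate 1 (adjusted p = 0.0791) or ASPS-A1 replicate 2 (adjusted p = 0.0560, edgeR). Of those that rose, Zfp131, a BTB zinc-finger protein, had 57.6, 51.8 and 56.3 CPM with ASPS-A1, against 38.3, 36.2 and 35.5 CPM in control (log2 fold change 0.59).

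The other rises in this list were small. Zfp91, a ubiquitin ligase placed in non-canonical NF-κB signalling, had 127, 126 and 128 CPM with ASPS-A1, against 109, 110 and 112 CPM in control (log2 fold change 0.20, adjusted p = 0.000514, edgeR). With library totals alone the call was lost (adjusted p = 0.916, edgeR). Zfp281, a regulator of pluripotency, had a log2 fold change of 0.36, also lost with library totals alone (adjusted p = 0.107, edgeR). Zfp410, which activates Chd4 in mouse erythroid cells, had 23.9, 19.7 and 24.2 CPM with ASPS-A1, against 17.5, 18.6 and 20.7 CPM in control, and the groups overlapped (log2 fold change 0.26, adjusted p = 0.0172, edgeR). Its call was lost without ASPS-A1 replicate 1 (adjusted p = 0.0883), without ASPS-A1 replicate 3 (adjusted p = 0.0915) and without control replicate 1 (adjusted p = 0.106, edgeR). It was also lost with library totals alone (0.06, adjusted p = 0.589) and with upper-quartile factors (adjusted p = 0.0606, edgeR).

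A KRAB domain was matched in 162 members, of which 160 were tested. In this class 67 fell, 8 rose and 85 did not pass, with a median log2 fold change of −0.34, against 33.0% lower and 32.4% higher over all genes tested. Of the 141 members without a match, 64 fell, 20 rose and 57 did not pass (median −0.24). Zfp13 and Zfp708, both listed among KRAB proteins, had no match, so this class may hold further KRAB genes. The difference between the classes was not tested. Members with 9 to 12 matched fingers had the lowest median (−0.47), with 57 of 99 lower and 5 higher. The lower calls there include Zfp324, Zfp94, Zfp747, Zfp72 and Zfp532, which reached 10 counts throughout only in control. Members with 0 to 4 fingers had a median of −0.19, with 14 of 43 lower and 9 higher. With 5 to 8 fingers the median was −0.14 (18 of 56 lower, 7 higher). It was −0.34 with 13 to 16 (23 of 56 lower, 2 higher) and −0.40 with 17 to 40 (19 of 47 lower, 5 higher). Spearman's rho between finger number and log2 fold change was −0.09 over 301 members, as a description.

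**Figure D3:**
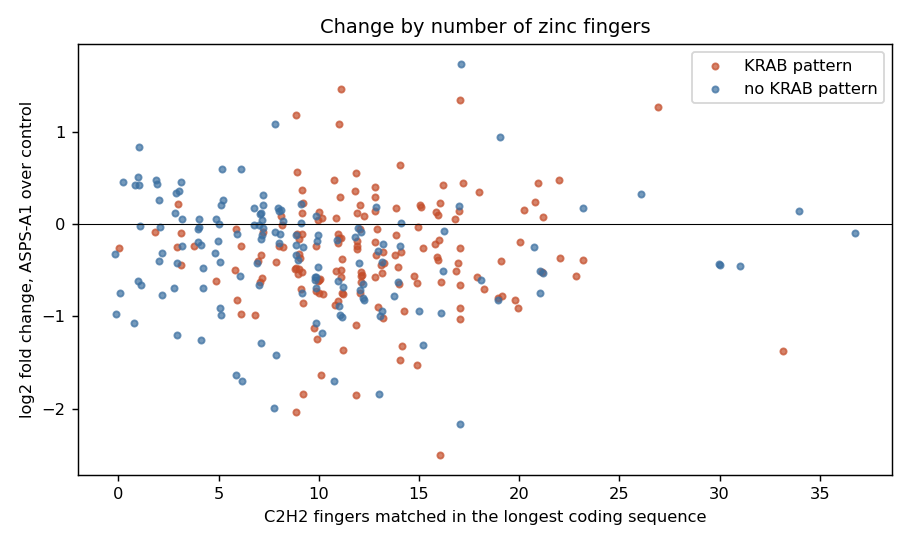
Log2 fold change of ASPS-A1 over control against the number of C2H2 fingers matched in the longest coding sequence, with 1 point per tested member, orange where a KRAB pattern was matched and blue where not. Of the 160 members with a KRAB match 67 were lower and 8 higher, and of the 141 without one 64 were lower and 20 higher.

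Of 13 tested KRAB proteins with known roles, 8 fell, 1 rose (Zfp13) and 4 did not pass (median −0.49), against 33.0% lower and 32.4% higher over all genes tested. Zfp809, which silences murine leukaemia virus through its primer-binding site, had 8.21, 6.14 and 6.94 CPM with ASPS-A1, against 11.5, 10.3 and 11.2 CPM in control (log2 fold change −0.63, adjusted p = 7.94e-05, edgeR). Zfp932, which binds endogenous retroviral elements, had 8.69, 6.74 and 9.11 CPM with ASPS-A1, against 11.9, 11.1 and 13.2 CPM in control (log2 fold change −0.56), with 37.6% of its 64-base words in another gene. Zfp317 had 16, 14.7 and 16.6 CPM with ASPS-A1, against 22.0, 23.2 and 25 CPM in control (log2 fold change −0.57). Zfp189 had 2.24, 2.55 and 2.22 CPM with ASPS-A1, against 3.99, 3.06 and 3.83 CPM in control (log2 fold change −0.63, adjusted p = 0.0159, edgeR), a call lost without control replicate 1 (adjusted p = 0.0631) and without control replicate 3 (adjusted p = 0.0536).

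The silencing partners of KRAB proteins changed in both directions. Of 29 tested cofactors, 13 fell, 5 rose and 11 did not pass, with a median log2 fold change of −0.07, against 33.0% lower and 32.4% higher over all genes tested. Setdb1 averaged 58.0 CPM with ASPS-A1 and 80.5 CPM in control (log2 fold change −0.47), and Chd4, a remodelling enzyme, 262 CPM with ASPS-A1 and 373 CPM in control (−0.51). Atf7ip, a SETDB1 partner, had a log2 fold change of −0.71. Trim28 itself averaged 140 CPM with ASPS-A1 and 156 CPM in control (−0.15, adjusted p = 0.0104, edgeR), and its groups overlapped. Hdac1, a histone deacetylase, rose (log2 fold change 0.64). With library totals alone 22 cofactors were lower and 2 higher, against 46.7% lower and 21.6% higher over all genes. With offsets for length and GC content 9 were higher, against 32.2% over all genes.

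Clusters were sought on chromosomes 2, 7, 13 and 17 only, and members on other chromosomes were not grouped. Of the 12 clusters found there with at least 5 tested members, 5 held a member called higher and 7 held none. Counts follow for those with at least 13 tested members. The largest, on chromosome 17 from Zfp160 to Zfp13, had 6 of 19 lower and 1, Zfp13, higher (median −0.27). In the chromosome 13 cluster from Zfp712 to Zfp85, 7 of 18 tested members were lower and 1, Zfp729a, was higher (median −0.57), against 33.0% lower and 32.4% higher over all genes tested, so the share lower is near that of all genes. The lower genes were Zfp595, Zfp953, Zfp429, Zfp874a, Zfp874b, Zfp87 and Zfp58. Zfp58, Zfp712 and Zfp85, all within that median, reached 10 counts throughout only in control. The chromosome 17 cluster from Zfp871 to Zfp414 had 8 of 13 lower and 2 higher (median −0.47), and the chromosome 7 cluster from Zfp84 to Zfp146 had 6 of 15 lower and 1, Zfp420, higher (median −0.37). Clusters are runs of members with gaps of at most 1000000 bases.

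**Figure D4:**
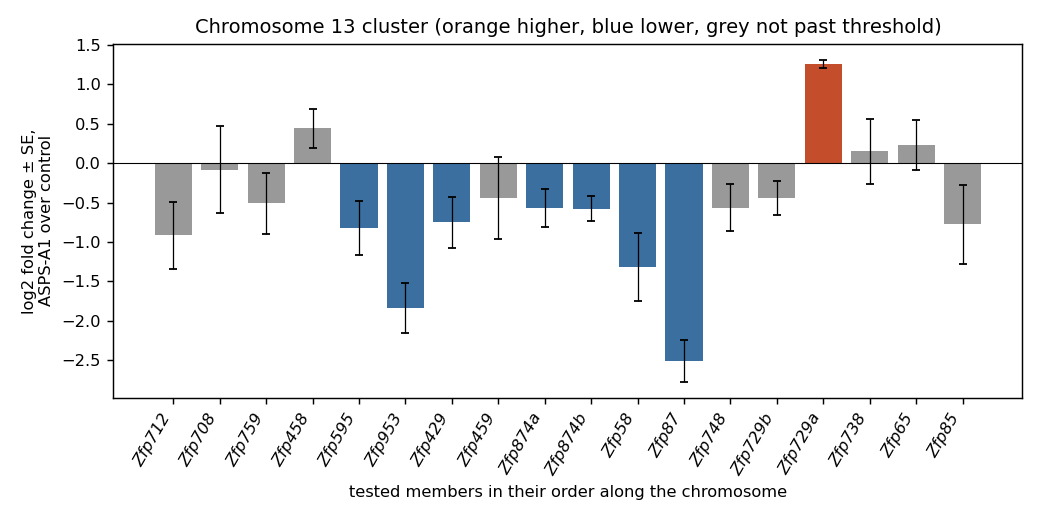
Log2 fold change of ASPS-A1 over control (bars, with SE) for the 18 tested members of the chromosome 13 cluster in their order along the chromosome, orange for higher, blue for lower and grey for not past the threshold. Zfp729a is the one member called higher and lies beside Zfp729b, which did not pass.

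Members were longer and scarcer than the median gene, and both features moved with the change over all genes, though their part in the members' result was not tested. Median transcript length was 3472 nt for members and 3103 nt for all genes tested, and median GC content 43.9% for members and 50.1% for all. Across genes, Spearman's rho between length and log2 fold change was −0.179 over 303 members and −0.387 over 11372 genes tested, as a description, since genes share libraries. In the shortest length class, of 195 to 1774 nt, the median was −0.43 over 24 members and 0.39 over all genes. In the longest class it was −0.52 over 69 members and −0.27 over all genes. With offsets for length and GC content 117 members were lower and 35 higher, against 30.1% lower and 32.2% higher over all genes. The members' median was then −0.21.

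**Figure D5:**
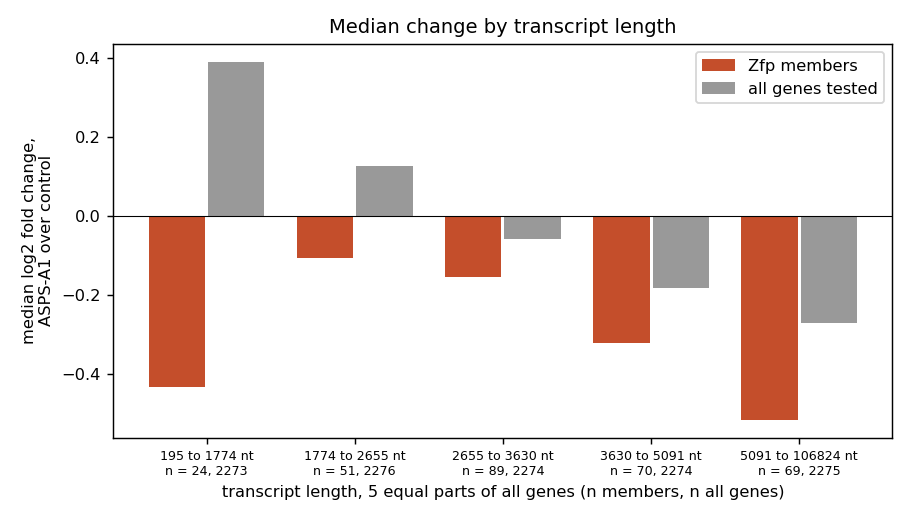
Median log2 fold change of ASPS-A1 over control (bars) in 5 classes of transcript length holding equal numbers of all genes tested, orange for members and grey for all genes. The members' bars are below 0 in every class, from −0.11 to −0.52, and those of all genes pass from 0.39 to −0.27.

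By level, members in the lowest of 4 equal level classes of all genes (mean at most 7.35 CPM) had a median of −0.39 over 169 members, against −0.17 over all genes of that class. There 38.5% of members fell and 3.55% rose, against 25.9% and 13.4% of all genes of that class. In the highest class (above 68.8 CPM) the 10 members had a median of 0.02, against 0.16 over all genes, with 4 lower and 4 higher. For families named in a like way, no difference between families was tested. Of 38 Zbtb genes 21 fell and 8 rose (median −0.36), of 18 Zkscan and Zscan genes 11 fell and 0 rose (median −0.60), and of 61 Rnf genes 24 fell and 16 rose (median −0.06), against 33.0% lower and 32.4% higher over all genes tested.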

How the data were processed

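Polyadenylated RNA of 6 RAW 264.7 libraries was sequenced, 3 with ASPS-A1 and 3 control. The authors deposited raw read counts per gene for 22192 genes. Per the submitters' processing notes the tools were HISAT2 2.1.0, fastp 0.22.0, DESeq 1.38.3 and HTSeq 0.9.1, listed without roles. Not given in the sources used here: genome build, annotation, strand setting and the handling of reads with several matches. The members and gene lists were chosen with earlier results of these data known.

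Genes were kept by edgeR's filter (10 counts, 15 in total), leaving 11686. Counts were scaled by trimmed means and tested in R 4.3.3 with edgeR 4.0.16, robust quasi-likelihood, no covariate, Benjamini-Hochberg threshold 0.05. DESeq2 1.42.0 and limma 3.58.1 were alternatives. The fit was tested on simulated data. No library was a copy of another in its group: chi-square over degrees of freedom was 4.21 to 6.80, above sampling noise. Depth, 19989318 to 26137127 counts, limits members near 10 counts. Correlations of same-numbered libraries' deviations were −0.0323, 0.00723 and −0.00343. They show no shared effect of the number, but cannot tell whether same-numbered libraries were handled together.

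Named genes were the 10 largest changes each way among called members whose groups did not overlap and whose higher group averaged 2 CPM or more, the 5 most abundant, and up to 4 called per direction per list. Genes cited to show a cluster, cofactor or factor were added after their values were seen. Lengths, overlaps and 64-base words came from GENCODE vM21. A RefSeq protein table had been planned for KRAB and finger matches, and GENCODE coding sequences, translated, were used instead. A KRAB match allowed 2 mismatches. Motifs were searched on both strands. Promoter windows are from RefSeq (258 members matched). Results for 2 listed genes are not reported here.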

Additional observations from a re-analysis of the deposited data

How the results depend on the processing

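No member called in the main test took the opposite call under any alternative run. Lower members numbered 117 to 176 and higher members 17 to 35 across alternatives other than the 1.5-fold threshold. DESeq2 gave 126 lower and 26 higher, limma-voom 131 and 28. The main test did not pair libraries by number, and the fit with a replicate block gave 130 lower and 28 higher members. Leaving out 1 library gave 118 to 126 lower and 23 to 28 higher members, 60 to 66 and 6 to 9 with KRAB, 56 to 62 and 16 to 20 without KRAB, 11 to 13 and 5 to 5 cofactors, 33 to 34 named genes called (35 in the main test) and a members' median of −0.35 to −0.27. The median of −0.31 became −0.37 with upper-quartile factors, −0.51 with library totals alone, −0.27 with at least 1 CPM in 3 libraries and −0.21 with offsets for length and GC content. With library totals alone, 17 members, 5 with KRAB and 12 without were higher, and 22 cofactors lower and 2 higher. That scaling moved the median of all genes to −0.22, against −0.02, with 5454 genes lower and 2529 higher, against 3852 and 3783. It also turned Zfp346 to −0.14, called lower, while offsets called it higher at 0.14. With offsets, 9 cofactors were higher. Against a 1.5-fold threshold (glmTreat), 36 members were lower and 6 higher, 16 and 3 with KRAB, 19 and 3 without, 0 and 0 cofactors, and 19 named genes passed; this threshold by construction drops small changes. Otherwise the cause was not tested. Depth limits members near 10 counts.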
